A study of Mus musculus with 11 samples.

Results

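Olfactory sensory neurons (OSNs) carry odorants' receptors to their cilia with the help of accessory proteins, and as they mature they switch on a set of genes that is shared by neurons with different receptors. The genes described here are 8 of this kind: Omp, Rtp1, Rtp2, Reep1, Stoml3, Cidea, Umodl1 and Cartpt. They were matched by symbol, with no threshold on a value, in the 24421 entries of a table of read counts, and all 8 passed the filter on low counts that left 16574 genes. The counts came from RNA-seq of undissociated main olfactory epithelium (MOE) from mice labelled as C57BL/6 pups of postnatal days 1 to 2. The Taar genes encode trace amine-associated receptors, and the cluster of olfactory ones, Taar2 to Taar9, was present on both chromosomes in 3 wild type libraries, deleted on 1 chromosome in 4 heterozygous libraries and deleted on both in 4 homozygous libraries. The deletion takes TAAR enhancer 2 with it but not TAAR enhancer 1. The reporting part of the paper gives an older age and a background mixed with 129 for this line, and which holds for these libraries was not settled. No agent or reporter gene is named for any group, and the labels give neither sex nor litter, nor do they say that each library came from a separate animal, so p-values measure the spread between these libraries.

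The mature OSN is the end of a lineage that runs from basal precursors through immature neurons. Newly made odorant receptors (ORs, encoded by the Olfr genes) are poorly released from the endoplasmic reticulum, and RTP and REEP proteins were found through their ability to bring ORs to the cell surface. At the cilia, receptors act through the G protein subunit encoded by Gnal, the cyclase Adcy3 and the cyclic nucleotide-gated channel, and OSNs that use TAARs share this machinery. In bulk tissue a lower level of an OSN gene can come from fewer OSNs or from less RNA per OSN, and these cannot be told apart here.

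The libraries held 9239866 to 14632525 counts, and the 8 genes 106 to 7950 counts each per library, so that counting error was small beside the spread between libraries for most of them. Homozygous replicate 2 stood apart, since 25.8% of its counts fell on the ribosomal precursor Rn45s, against 0.0848% to 0.786% in the other 10 libraries. The first principal component (41.6% of the variance) split the libraries into a set 1 of 6 (wild type 1 and 2, heterozygous 3 and 4, homozygous 1 and 2) and a set 2 of 5, which held only 1 wild type library, replicate 3. Summed over 10 skeletal muscle genes, the level ranged from 13.6 to 66.1 CPM in wild type, 24.5 to 1671 CPM in heterozygous and 30.3 to 794 CPM in homozygous libraries. CPM is the count for each 1000000 counts of a library, after TMM scaling of its total. The Taar genes followed the labels, with a sum of 94, 87 and 119 counts in wild type, 96, 89, 68 and 31 in heterozygous, and 1, 1, 2 and 3 in homozygous libraries, the last all at or under a floor of 3 counts.

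The 8 genes spanned a wide range of levels. Per kilobase of exon and averaged over the 11 libraries, Omp was highest at 234 ± 52.5 CPM (SD), which placed it 75th among 23350 genes with a known length. Rtp1 (78.9 ± 13.5 CPM per kilobase) and Stoml3 (70.8 ± 14.3) followed, and as Rtp1 was the higher in only 8 of 11 libraries, their order was not firm. Rtp2 came next at 41.9 ± 9.79 CPM per kilobase, above Cartpt (27.6 ± 6.06) in 9 libraries. Cartpt was above Umodl1 (26.5 ± 6.53) in 7 libraries, so this pair did not differ beyond their spread. Reep1 (14.4 ± 1.93) was above Cidea (11.4 ± 2.30) in 8 libraries. Omp stood above Rtp1, Stoml3 above Rtp2, and Umodl1 above Reep1 in all 11 libraries.

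Omp encodes a small cytoplasmic protein that marks the mature OSN and shapes the time course of its response. Its single annotated exon lies on the minus strand at chr7:98143359-98145502 (mm10), inside the span of Capn5 but with 0 exon bases shared. In wild type replicates 1 to 3 Omp was at 737, 599 and 349 CPM. The heterozygous libraries held 533, 508, 552 and 414 CPM, and the homozygous ones 451, 346, 494 and 524 CPM. Wild type thus held the 2 highest libraries and also replicate 3, which was near the lowest of all, and the 3 genotypes overlapped. The means were 562 ± 197 (SD, n = 3), 502 ± 61.3 (SD, n = 4) and 454 ± 77.7 CPM (SD, n = 4). The homozygous level was 0.808 of wild type (log2 fold change -0.31, SE 0.24, 95% confidence interval -0.82 to 0.21, adjusted p = 0.996 in edgeR's quasi-likelihood test), a difference within the spread between libraries.

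Rtp1 and Rtp2 encode the receptor transporting proteins, membrane proteins that bind ORs and promote their transport to the plasma membrane. They lie on chromosome 16 in opposite directions, Rtp1 at chr16:23429133-23433960 (plus strand, 2 exons) and Rtp2 at chr16:23925548-23932394 (minus strand, 6 exons). Rtp1 was at 313, 293 and 202 CPM in wild type, 219.5, 239, 316 and 218 CPM in heterozygous, and 243, 198, 229.5 and 234 CPM in homozygous libraries. Rtp2 was at 163, 139.7 and 79.5 CPM in wild type, 90.4, 96.1, 141 and 116 CPM in heterozygous, and 118, 100.1, 101 and 88.0 CPM in homozygous libraries. In both genes wild type replicates 1 and 2 and heterozygous replicate 3 were the 3 highest libraries, and the groups overlapped. The homozygous level was 0.840 of wild type for Rtp1 (log2 fold change -0.25, SE 0.18, interval -0.65 to 0.15) and 0.799 for Rtp2 (log2 fold change -0.32, SE 0.23, interval -0.83 to 0.18), each with an adjusted p of 0.996 in edgeR's test.

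Reep1, at chr6:71707561-71810710 (plus strand), encodes a membrane-shaping protein of the endoplasmic reticulum that was found together with the RTP proteins. It was the flattest of the 8, at 51.4, 46.6 and 66.6 CPM in wild type, 63.3, 66.8, 64.6 and 50.2 CPM in heterozygous, and 60.9, 49.5, 62.5 and 67.1 CPM in homozygous libraries. The wild type library that was low for Omp, Rtp1 and Rtp2 was the highest wild type library for Reep1. Over all 11 libraries the SD was 13.4% of the mean, against 17.1% for Rtp1 and 20.2% to 24.6% for the other 6. The difference between homozygous and wild type (log2 fold change 0.13, SE 0.16, interval -0.23 to 0.49) did not pass edgeR's test (adjusted p = 0.996).

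Stoml3, a stomatin-like membrane protein of OSN cilia that also serves touch receptors, and Umodl1, an extracellular matrix-type protein (olfactorin) made by OSNs, went together with Omp over the libraries, as described below. Stoml3 was at 212, 162 and 117 CPM in wild type, 178, 142, 161 and 119 CPM in heterozygous, and 134, 111, 163 and 173 CPM in homozygous libraries. Umodl1 was at 208, 184 and 112 CPM in wild type, 137, 120.2, 164 and 114 CPM in heterozygous, and 126, 96.96, 119 and 135 CPM in homozygous libraries. For both, replicates 1 and 2 of wild type were high and replicate 3 low. Umodl1 fell furthest of the 8 in homozygous against wild type libraries, to 0.71 of the level (log2 fold change -0.49, SE 0.21, interval -0.95 to -0.04). Its unadjusted p of 0.0369 did not survive adjustment in edgeR's test (adjusted p = 0.996), and 3 of 4 homozygous libraries lay within the wild type range. Without wild type replicate 1 the change was -0.31 (unadjusted p = 0.195) and with the skeletal muscle level as a covariate also -0.31 (unadjusted p = 0.18), and the unadjusted p was also above 0.05 without wild type replicate 2, homozygous replicate 2 or homozygous replicate 3. Stoml3 differed by -0.17 (SE 0.22, interval -0.65 to 0.31, adjusted p = 0.996).

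Promoter sequence is shown for these 2 genes because, of the 5 with a RefSeq window, theirs began before every annotated start of the gene. The RefSeq promoter windows (GRCm38.p6) were used as far as the start of the gene, on the plus strand, at chr3:53488457-53488652 for Stoml3 and chr17:30954433-30954639 for Umodl1. Capitals mark 2 motifs searched on both strands, TAAT (the core of homeodomain sites, such as those of Lhx2) and CCCNNGGG (the core of EBF sites), both families being known regulators of OSN genes.
Stoml3: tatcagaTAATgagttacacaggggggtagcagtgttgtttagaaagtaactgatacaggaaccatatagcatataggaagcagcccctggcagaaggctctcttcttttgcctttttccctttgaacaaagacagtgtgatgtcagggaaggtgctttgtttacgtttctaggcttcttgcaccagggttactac
Umodl1: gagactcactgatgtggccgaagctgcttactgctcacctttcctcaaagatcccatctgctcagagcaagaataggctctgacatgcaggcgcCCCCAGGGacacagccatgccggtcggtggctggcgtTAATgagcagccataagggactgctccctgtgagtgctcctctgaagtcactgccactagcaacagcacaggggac
TAAT was found once in each window, 189 bases before the start of Stoml3 and 76 bases before that of Umodl1. The EBF core was found once, 113 bases before the start of Umodl1. TAAT stood in 49.6% and 50.95% of all 32851 promoters over windows of these lengths, and the EBF core in 9.19% and 9.76%, so neither match sets these genes apart. The Umodl1 window lies over an annotated antisense gene. GC content was 46.8% and 57.6% in the full windows, against a median of 52.4%. RefSeq windows were at hand for 5 of the 8 genes.

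Cidea, at chr18:67343604-67367785 (plus strand, 5 exons), encodes a lipid droplet protein best known from brown fat. It had the lowest counts, 106 to 266 per library. Cidea was at 14.0, 12.7 and 8.56 CPM in wild type, 18.1, 13.6, 13.5 and 11.9 CPM in heterozygous, and 14.6, 11.8, 9.90 and 10.8 CPM in homozygous libraries. The highest library was heterozygous and the lowest was wild type, with the groups overlapping. Homozygous and wild type means differed little (log2 fold change 0.00, SE 0.23, interval -0.49 to 0.50), and the heterozygous mean was above both, with a log2 fold change of 0.28 against wild type (interval -0.21 to 0.78, adjusted p = 1 in edgeR's test). Of the fat cell genes, Ucp1 had 1 to 8 counts per library, Adipoq 0 to 4, Plin1 0 to 2 and Lep 0, while Fabp4 had 32 to 156 and Pparg 22 to 39. Summed over 8 fat cell genes, of which 2 passed the filter, the level was 5.73 to 6.98 CPM in wild type, 7.14 to 19.3 CPM in heterozygous and 6.54 to 16.4 CPM in homozygous libraries. Of the 2 tested, Fabp4 was higher in homozygous than wild type libraries at an unadjusted p under 0.05 (log2 fold change 1.29, adjusted p = 0.996 in edgeR's test).

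Cartpt, at chr13:99898489-99901091 (minus strand), encodes the precursor of the CART neuropeptide, which is made by some OSNs and by many neurons of the brain. It was at 36.8, 26.9 and 32.7 CPM in wild type, 46.4, 36.3, 34.9 and 25.3 CPM in heterozygous, and 32.8, 26.5, 40.8 and 48.7 CPM in homozygous libraries. The lowest and the highest libraries were both from mutant mice. The difference between homozygous and wild type (log2 fold change 0.21, SE 0.24, interval -0.31 to 0.73, adjusted p = 0.996) was within the spread. The 8 genes listed for olfactory bulb neurons, of which 5 were tested, summed to 125 to 152 CPM in wild type, 114 to 152 CPM in heterozygous and 99.6 to 154 CPM in homozygous libraries, with Cdhr1 (mean 104 CPM) the highest and Gad2 at 72 to 526 counts. Tbx21 had 0 to 12, Th 1 to 15 and Gad1 1 to 40 counts, each highest in homozygous replicate 1, where Cartpt was at 32.8 CPM. The part of bulb RNA in the Cartpt values was not tested.

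**Figure D1:**
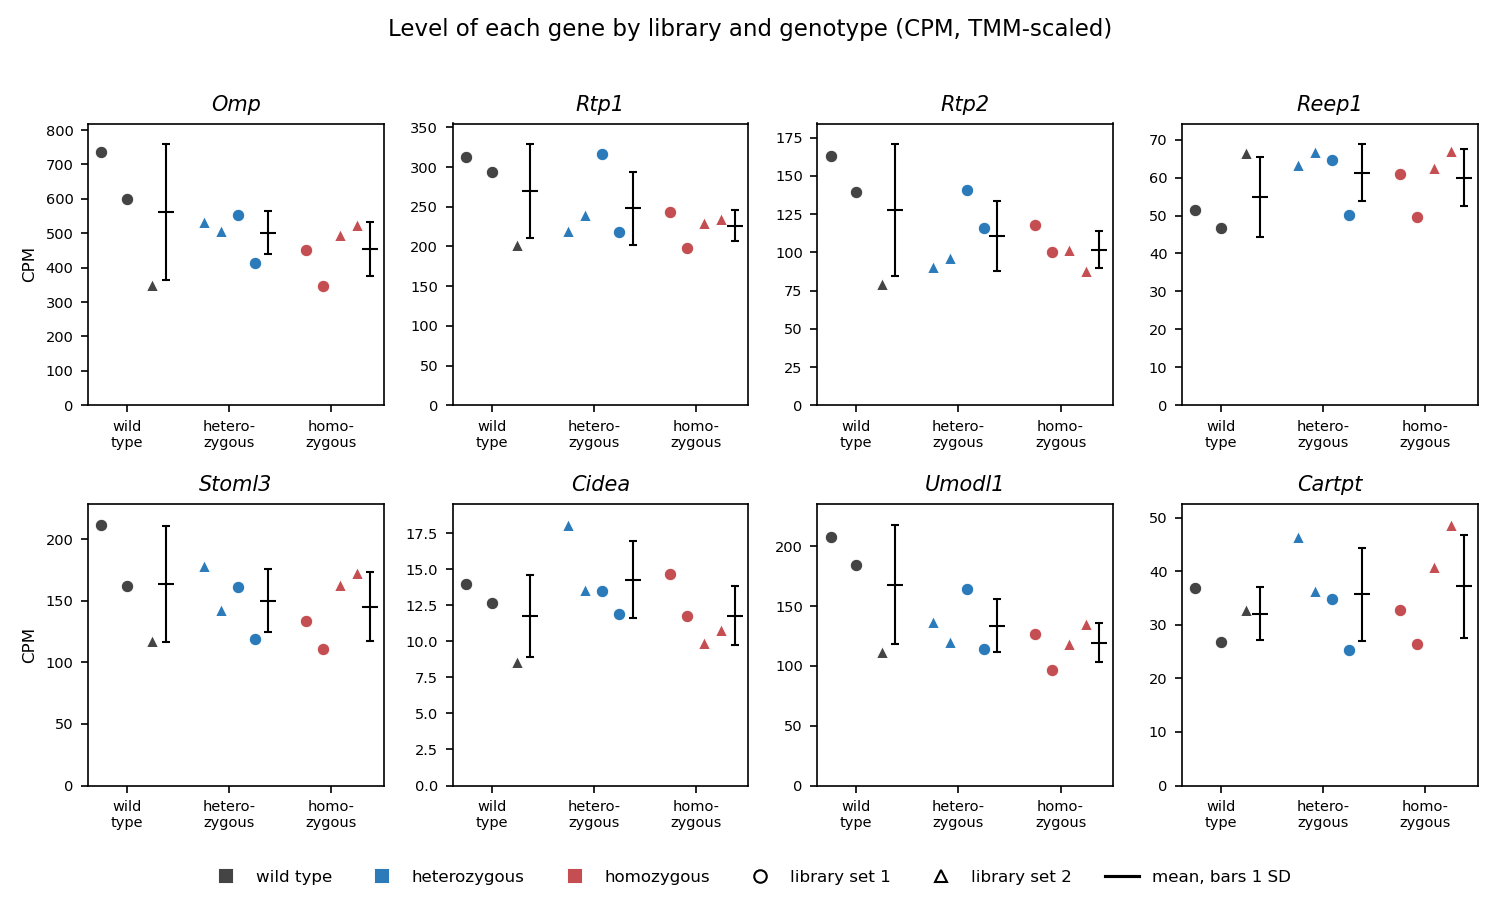
Level (CPM, TMM-scaled, linear axes from 0) of the 8 genes in each library by genotype; circles are library set 1, triangles set 2, and bars show the mean ± 1 SD. In Omp, Rtp1, Rtp2, Stoml3, Cidea and Umodl1 the lowest wild type point is replicate 3 (349 CPM for Omp), in Reep1 it is the highest wild type point, and the genotypes overlap in every panel.

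The first comparison asked whether loss of both copies of the Taar cluster went with a change of mature OSN and receptor transport genes. None of the 8 genes passed an adjusted p of 0.05 in homozygous against wild type libraries, nor did any other gene in edgeR's test (0% of 16574), while DESeq2 called 8 genes, none of them among the 8 described. Of the deleted Taar genes 4 were tested and 0 passed adjustment, with Taar6 at a log2 fold change of -7.41 (adjusted p = 0.173 in edgeR's test). A gene that does not pass adjustment here is thus not shown to be unchanged. At an unadjusted p under 0.05 there was 1 of 8, Umodl1, against 3.02% of all genes. Of the 8, 5 had a log2 fold change under 0 (Omp, Rtp1, Rtp2, Stoml3, Umodl1) and 3 above 0, with a median of -0.21 beside 0.02 over all genes. No gene among the 8 had all libraries of a genotype above or below all of the other, which 4.99% of genes had. In heterozygous against wild type libraries the count was 0 at either threshold (0% and 2.24% of genes), with 5 of 8 under 0, a median of -0.12 beside 0.00 over all genes, and no gene with separate groups (2.51% of genes). Heterozygous fold changes against wild type ran from -0.33 (Umodl1, interval -0.79 to 0.13) to 0.28 (Cidea). Between homozygous and heterozygous libraries it was again 0 (0% and 0.561% of genes), with 7 of 8 under 0, a median of -0.13 beside 0.01 over all genes, and no separate groups (0.597% of genes). There the fold changes ran from -0.28 (Cidea, interval -0.73 to 0.18) to 0.06 (Cartpt, interval -0.42 to 0.54). The comparisons share libraries and are not independent of each other. For Rtp1, with an interval of -0.65 to 0.15, a loss to under 0.636 of the wild type level lies outside the interval, and for Omp a loss to under 0.564. These bounds hold for the fit of all libraries only, as both estimates were lower without wild type replicate 3 (described below).

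**Figure D2:**
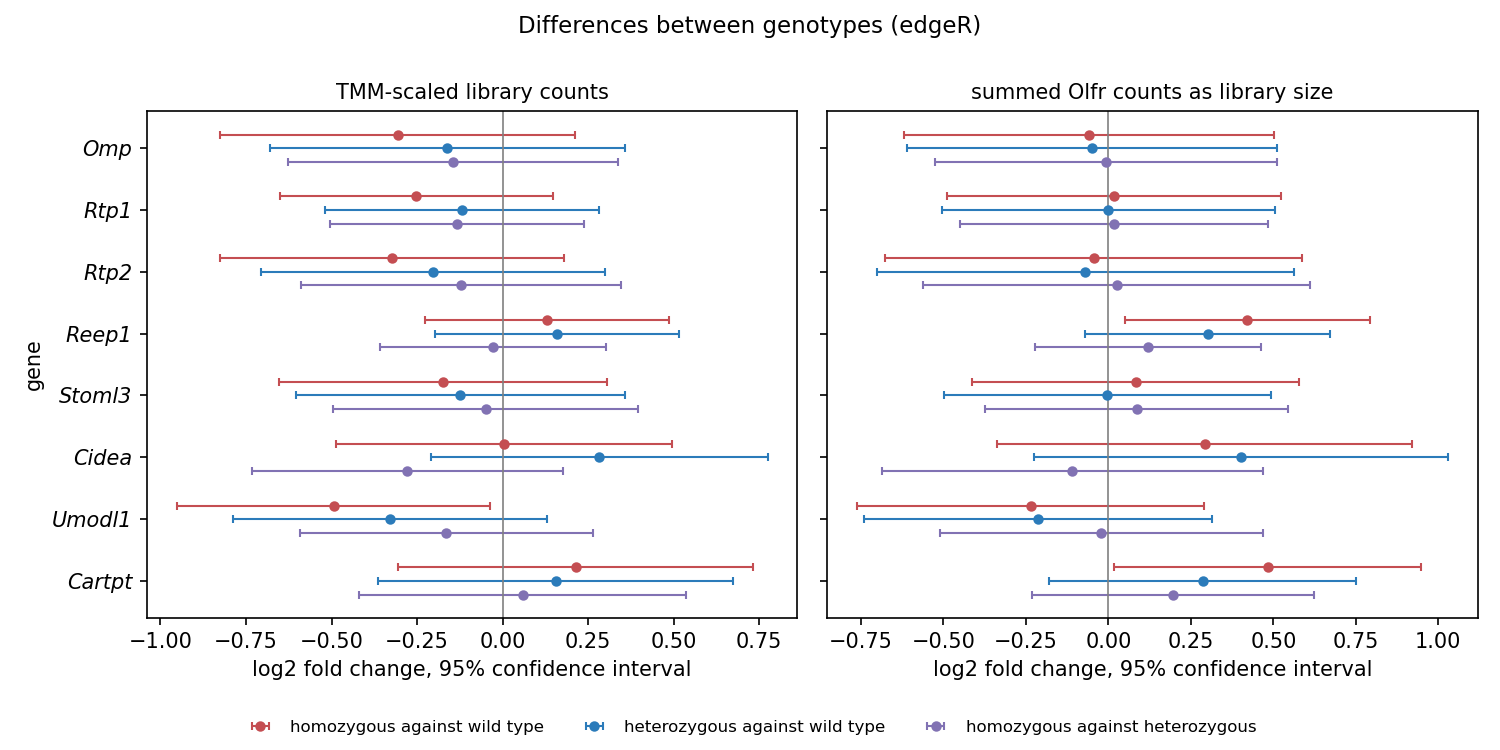
Log2 fold change with its 95% confidence interval for the 8 genes in the 3 comparisons, with TMM-scaled library totals (left) and with the summed Olfr counts as library size (right). On the left only the interval of Umodl1 in homozygous against wild type libraries leaves out 0 (-0.95 to -0.04), and on the right only those of Reep1 (0.05 to 0.79) and Cartpt (0.02 to 0.95) do.

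The sign of these differences was not the same within the library sets. Within set 1 the homozygous mean was below the wild type mean for 7 of the 8 genes, and within set 2, where wild type is the single replicate 3, it was above for 7 of 8. The sign differed between sets for all 8, and the share of all genes for which it differed was not counted. For Omp the log2 ratio of the means was -0.75 within set 1 and 0.55 within set 2, and for Umodl1 -0.81 and 0.18. Heterozygous against wild type means showed the same split, with -0.47 and 0.58 for Omp. When the fit of all libraries held the set as a covariate, the homozygous against wild type log2 fold change was -0.29 for Omp, -0.20 for Stoml3 and -0.44 for Umodl1 (unadjusted p = 0.0457, adjusted p = 0.705 in edgeR's test); without it these were -0.31, -0.17 and -0.49. It went from -0.32 to -0.20 for Rtp2, from -0.25 to -0.20 for Rtp1, from 0.21 to 0.11 for Cartpt and from 0.13 to 0.09 for Reep1. When wild type replicate 3 was left out, Umodl1 (log2 fold change -0.72, unadjusted p = 0.00199), Rtp2 (-0.57, unadjusted p = 0.0115), Omp (-0.56, unadjusted p = 0.0159) and Rtp1 (-0.42, unadjusted p = 0.032 in edgeR's test) were lower in homozygous than wild type libraries, 4 of 8 genes beside 4.25% of all genes under an unadjusted p of 0.05. None passed adjustment (adjusted p = 0.783 for each in edgeR's test). In the same fit 2 of the 8, Umodl1 (-0.55) and Rtp2 (-0.45), reached an unadjusted p under 0.05 in heterozygous against wild type libraries, beside 3.66% of all genes. Leaving out wild type replicate 1 instead moved the homozygous against wild type values the other way, to -0.06 for Omp, -0.13 for Rtp1 and -0.11 for Rtp2. Without wild type replicate 3 and homozygous replicate 2, Omp, Rtp2 and Umodl1 (lower) and Reep1 (higher, 0.36) were under an unadjusted p of 0.05 in homozygous against wild type libraries, but not Rtp1, and Omp, Rtp2 and Umodl1 (lower) in heterozygous against wild type libraries, beside 4.58% and 3.31% of all genes. With the replicate number as a block, 0 of 8 were under an unadjusted p of 0.05 (1.73% of all genes), and in a fit of these 2 genotypes alone 1 did, Umodl1 (log2 fold change -0.54, unadjusted p = 0.0174, adjusted p = 0.66 in edgeR's test), beside 6.31% of all genes, while 39 other genes passed adjustment.

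To set the 8 genes beside the receptors that they serve, counts were next expressed per 1000 counts of all 1125 Olfr genes. The Olfr sum itself was 1238 ± 128 CPM (SD, n = 3) in wild type, 1129 ± 163 CPM (SD, n = 4) in heterozygous and 1021 ± 159 CPM (SD, n = 4) in homozygous libraries. The homozygous sum was 17.5% lower than wild type (two-sided exact permutation test, p = 0.114, where 3 against 4 libraries can give no less than 0.0571), and without homozygous replicate 2 the difference was -11.6%. In the 3 same-numbered pairs the homozygous library was the lower each time, at 1029 against 1257, 799 against 1101 and 1171 against 1355 CPM (two-sided exact permutation of signs, p = 0.25, the smallest that 3 pairs can give). The heterozygous sum differed from wild type by -8.77% (exact permutation p = 0.457) and the homozygous from the heterozygous sum by -9.61% (exact permutation p = 0.4). Single libraries set much of these. The first was -2.63% without heterozygous replicate 4, -4.23% without wild type replicate 3 and -13.6% without wild type replicate 2. The second was -3.06% without homozygous replicate 2 and -15.3% without heterozygous replicate 4. With the Olfr counts as reference, the median log2 fold change of all genes was 0.31 in homozygous and 0.15 in heterozygous libraries compared with wild type. It was 0.15 between homozygous and heterozygous libraries, and changes are read beside these shifts. Without heterozygous replicate 4 the heterozygous shift was 0.03 and the last 0.26, and without homozygous replicate 2 the homozygous shift was 0.19 and the last 0.03.

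Per 1000 Olfr counts Omp had 586, 544 and 257 counts in wild type, 469, 396, 463 and 459 in heterozygous, and 438, 434, 422 and 483 in homozygous libraries. The 8 mutant libraries thus lay close together, between wild type replicate 3 and the other wild type libraries. The SD was 7.63% of the mean in heterozygous and 6.05% in homozygous libraries, against 38.7% in wild type. This wild type spread rests on replicate 3 (257, beside 586 and 544). Rtp1 had 249, 266 and 149 counts per 1000 Olfr counts in wild type, 193, 187, 265 and 242 in heterozygous, and 236, 248, 196 and 216 in homozygous libraries, with means of 222, 221 and 224. Rtp2 had means of 105 ± 40.2 (SD, n = 3), 100.2 ± 27.0 (SD, n = 4) and 102 ± 21.4 (SD, n = 4), and Stoml3 of 134 ± 42.5, 134 ± 18.7 and 142 ± 12.6. In these 4 genes the ratio to the Olfr counts differed between genotypes by less than its spread, with log2 fold changes of -0.06 (Omp, interval -0.62 to 0.50), 0.02 (Rtp1, -0.49 to 0.52), -0.05 (Rtp2, -0.68 to 0.59) and 0.08 (Stoml3, -0.41 to 0.58) in homozygous against wild type libraries. Umodl1 (-0.24, interval -0.76 to 0.29) and Cidea (0.29, interval -0.34 to 0.92) also had intervals that held 0. Single wild type libraries moved the Umodl1 value: without wild type replicate 3 it was -0.50 (unadjusted p = 0.0359, adjusted p = 0.529 in edgeR's test), without wild type replicate 3 and homozygous replicate 2 it was -0.52 (unadjusted p = 0.0383, adjusted p = 0.674), and without wild type replicate 1 or 2 it was -0.09 or -0.08.

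Reep1 and Cartpt had the 2 intervals that left out 0 on this scale, in homozygous against wild type libraries, without passing adjustment. Reep1 had 40.9, 42.3 and 49.2 counts per 1000 Olfr counts in wild type, 55.6, 52.1, 54.1 and 55.7 in heterozygous, and 59.2, 62.0, 53.4 and 61.9 in homozygous libraries. All 8 mutant libraries lay above all 3 wild type libraries. Cartpt had 29.3, 24.4 and 24.1 counts per 1000 Olfr counts in wild type, 40.8, 28.3, 29.2 and 28.0 in heterozygous, and 31.9, 33.2, 34.8 and 44.9 in homozygous libraries, the last all above wild type, while 3 of the 4 heterozygous libraries lay within the wild type range. On this scale 11.7% of all genes had every homozygous library above every wild type library, and 2 of the 8 did. For heterozygous against wild type it was 1 of 8 and 2.82% of genes. The log2 fold changes in homozygous against wild type libraries were 0.42 for Reep1 (SE 0.17, unadjusted p = 0.0291) and 0.48 for Cartpt (SE 0.22, unadjusted p = 0.0434), with an adjusted p of 0.483 for both in edgeR's test, beside the median of 0.31 over all genes. These were the 2 of 8 genes under an unadjusted p of 0.05, on a scale where 9.39% of genes were, and 0 of 8 passed adjustment, against 0.00603% of genes. The 1 gene that passed was one of the deleted Taar genes. Neither of the other comparisons called any of the 8 (heterozygous against wild type 0% adjusted and 2.36% unadjusted, homozygous against heterozygous 0% and 0.682%). In a blocked fit of wild type and homozygous libraries alone the adjusted p was 0.118 for Reep1 and 0.147 for Cartpt, with 552 other genes called. With the replicate block in all genotypes 0 of the 8 were under an unadjusted p of 0.05, beside 516 of 16574 genes. With transduction counts as the reference it was also 0 of the 8, beside 910 genes. With Omp counts as the reference in place of Olfr counts, the change was 0.24 (unadjusted p = 0.478) for Reep1 and 0.37 (unadjusted p = 0.267) for Cartpt in edgeR's test. Without wild type replicate 1 the Olfr-scaled change of Reep1 was 0.37 (unadjusted p = 0.102), and without wild type replicate 3 that of Cartpt was 0.43 (unadjusted p = 0.112).

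**Figure D3:**
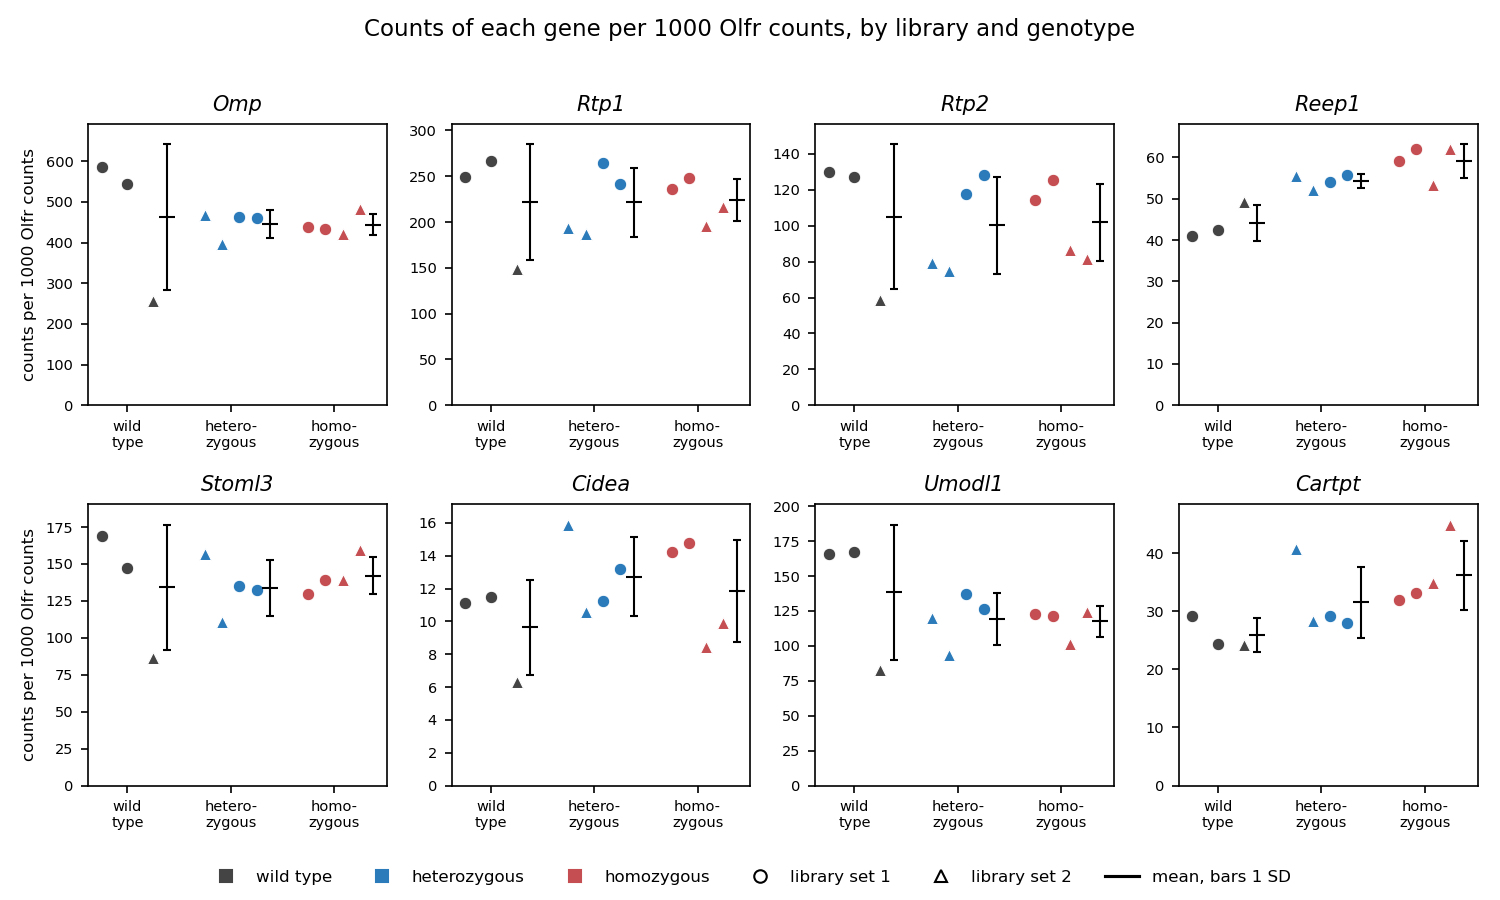
Counts of the 8 genes per 1000 Olfr counts in each library by genotype (linear axes from 0, bars mean ± 1 SD, circles library set 1, triangles set 2). All mutant points of Reep1 (52.1 to 62.0) lie above the wild type points (40.9 to 49.2), while for Omp the mutant points (396 to 483) lie between those of wild type (257 to 586).

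The library set also showed in these ratios. In set 1 Rtp2 had 115 to 129.7 counts per 1000 Olfr counts and in set 2 58.7 to 86.5, with no overlap, and Rtp1 had 236 to 266 and 149 to 216. The sets were cut from the levels of these and all other tested genes, so some genes separate them by construction. What share of all genes does so was not counted. For Reep1 the ranges of the sets overlapped (40.9 to 62.0 and 49.2 to 61.9). Within set 1 the log2 ratio of homozygous to wild type means was 0.54 for Reep1 and 0.28 for Cartpt, and within set 2 it was 0.23 and 0.73. With the set as a covariate the log2 fold changes were 0.42 (adjusted p = 0.168 in edgeR's test) and 0.44 (adjusted p = 0.174).

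Relative to the Taar counts the genes could be compared in wild type and heterozygous libraries only, as the homozygous ones held 7 Taar counts in all. For each Taar count there were 68.9 ± 28.3 Omp counts in wild type (SD, n = 3), beside 91.2 ± 23.0 in heterozygous libraries (SD, n = 4), ranging from 36.3 to 85.9 and from 72.7 to 124.8. Rtp1 had 33.0 ± 10.8 and 45.7 ± 15.1, and Rtp2 15.7 ± 6.44 and 21.1 ± 9.96. These groups overlapped. Every heterozygous library was above every wild type library for 3 of the 8 genes, Reep1 (9.57 to 15.1 against 5.90 to 6.93 counts per Taar count), Cidea (1.94 to 3.58 against 0.891 to 1.82) and Cartpt (5.20 to 7.61 against 3.40 to 4.22), on a scale where 21.1% of all genes showed this. Taken the other way, there were 11.8, 11.6 and 27.6 Taar counts per 1000 Omp counts in wild type and 12.2, 13.7, 11.7 and 8.01 in heterozygous libraries. The heterozygous mean was 67.1% of wild type (two-sided exact permutation test, p = 0.514), and without wild type replicate 3, which was low in Omp, it was 97.3% (exact permutation p = 0.933).

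Across the 11 libraries the level of each gene was then set beside the Olfr sum. Pearson's r of log2 CPM ran from -0.08 (Cidea) to 0.57 (Reep1), where r was 0.43 for Omp (permutation p = 0.183) and 0.37 for Rtp1 (permutation p = 0.26). Reep1 had an r with a permutation p of 0.064 (adjusted over 16574 genes 0.371) and a Spearman's rho of 0.54 (permutation p = 0.0936, adjusted 0.498). None of the 8, nor any other gene, passed adjustment, and 14.1% of genes had an unadjusted p under 0.05. On shares of raw counts, without TMM scaling, r was higher, at 0.68 for Omp, 0.69 for Rtp1, 0.81 for Reep1, 0.72 for Stoml3, 0.67 for Umodl1 and 0.70 for Cartpt, these 6 of 8 genes with a permutation p of 0.00773 to 0.0372 (adjusted 0.112 to 0.169), on a scale where 26.4% of all genes had an unadjusted p under 0.05. That scale lowers all genes and the Olfr sum together in homozygous replicate 2, with its high share of Rn45s. With Rn45s left out of the totals, r was 0.45 for Omp and 0.42 for Rtp1, and 1 of 8 genes, Reep1 (0.61, permutation p = 0.0452, adjusted 0.377), beside 12.9% of all genes, was under 0.05. Without the 2 libraries farthest from the median Olfr sum, homozygous replicate 2 and heterozygous replicate 4, r was 0.21 for Reep1 and -0.18 for Omp, so these relations rested on those libraries. Within the 6 libraries of set 1, r was 0.94 for Omp, 0.98 for Rtp1, 0.96 for Rtp2, 0.94 for Stoml3 and 0.94 for Umodl1, with Spearman's rho of 0.94, 0.94, 1, 0.94 and 0.94. The exact permutation p for r was 0.00556, 0.00278, 0.00139, 0.00833 and 0.00556 (adjusted over all genes 0.548 to 0.634), so 5 of 8 genes were under 0.05, beside 7.11% of all genes, and for Reep1 r was 0.35 (exact permutation p = 0.496). Set 1 holds both of the libraries on which the relations over 11 libraries rested. The 5 libraries of set 2 were too few for a correlation to be reported, but its values did not follow those of set 1: wild type replicate 3 had the highest Olfr sum (1355 CPM) of set 2 with the lowest Omp (349 CPM), and homozygous replicate 4 the lowest Olfr sum (1084 CPM) with 524 CPM of Omp. After subtraction of the genotype means the r of Reep1 over 11 libraries was 0.89 (permutation p = 4.6e-04, adjusted 0.0652) and that of Cartpt 0.77 (permutation p = 0.00628, adjusted 0.0976), 2 of 8 genes under 0.05 beside 27.9% of all genes. The permutation treated the values as if no means had been subtracted, so these p-values come out too small.

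The 8 genes did not vary as 1 group. Over the 11 libraries, as a description with libraries that share depth and composition, Omp went with Stoml3 (Pearson's r of log2 CPM 0.94), Umodl1 (0.91) and Rtp1 (0.84), and less with Rtp2 (0.65), Cidea (0.49) and Cartpt (0.40). The median r of all other genes with Omp was -0.02, and 0.398% of genes were above 0.8. Rtp1 went with Umodl1 (0.92) and Rtp2 (0.86). Reep1 followed neither Omp (-0.09) nor Rtp1 (-0.18), ran against Rtp2 (-0.58), and went with Cartpt (0.73). After subtraction of the set means, Omp and Rtp2 had an r of 0.93, Rtp2 and Stoml3 went from 0.43 to 0.87, Rtp2 and Cartpt from -0.34 to 0.53, Rtp2 and Reep1 from -0.58 to 0.03, and Reep1 and Cartpt from 0.73 to 0.42. Omp, Rtp1, Rtp2, Stoml3 and Umodl1 then had pairwise values of 0.83 to 0.96, and Reep1 with these 5 genes -0.01 to 0.27.

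**Figure D4:**
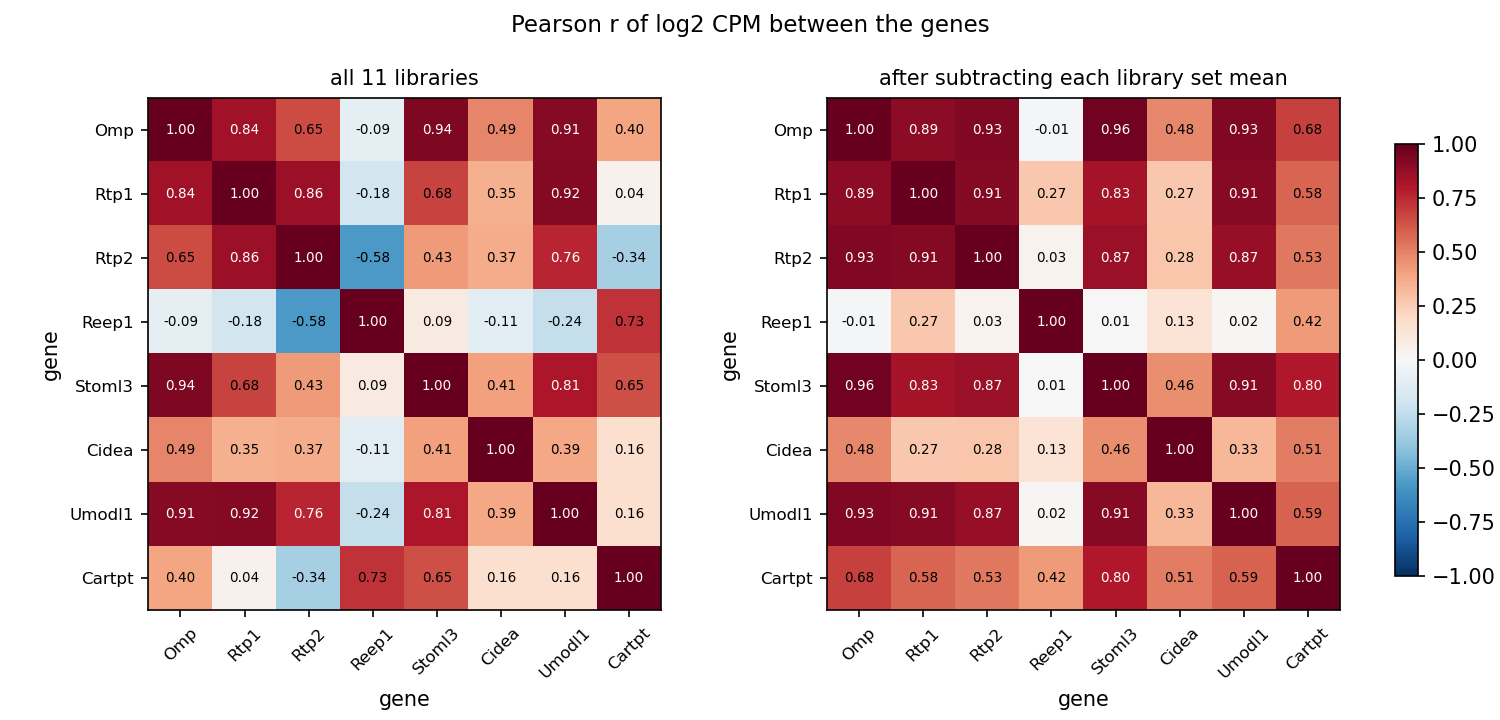
Pearson's r of log2 CPM for each pair of the 8 genes over all 11 libraries (left) and after subtraction of the mean of each library set (right), on a colour scale from -1 to 1. On the right Omp, Rtp1, Rtp2, Stoml3 and Umodl1 form a block with values of 0.83 to 0.96, while Reep1 is between -0.01 and 0.27 with these 5 genes and at 0.42 with Cartpt.

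Outside the 8, the 10 genes most like Omp by Pearson's r over 11 libraries were Kcnab2 (0.97), Nsg1 (0.96), Astn2 (0.96), Kcnc4 (0.95), Faim2 (0.95), Cnga2 (0.94), Olfr513 (0.93), Ubl4a (0.93), Chga (0.93) and Drd2 (0.92). Kcnab2 and Kcnc4 encode potassium channel subunits, Cnga2 the cyclic nucleotide-gated channel subunit of olfactory transduction, and Drd2 a dopamine receptor. Kcnab2 ranged from 48.6 to 90.9 CPM and Cnga2 from 115 to 201 CPM. Among 16573 other genes Stoml3 ranked 7th, Umodl1 13th and Rtp1 32nd in likeness to Omp, while Rtp2 ranked 282nd, Cidea 852nd, Cartpt 1442nd and Reep1 10085th.

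The lists of other genes were counted on TMM-scaled levels, except where the Olfr counts are named as the reference. In the olfactory transduction pathway, 10 genes were listed and tested, and 0 passed an unadjusted p of 0.05 in any of the 3 comparisons. All 10 had a log2 fold change under 0 in homozygous against wild type libraries, with a median of -0.23 beside 0.02 over all genes. Gnal was at 427 ± 95.1 CPM in wild type (SD, n = 3), beside 337 ± 39.3 CPM in homozygous libraries (SD, n = 4), a log2 fold change of -0.34 (SE 0.20). Cnga2 was at 169 ± 34.4 and 139 ± 16.0 CPM, Ric8b, an exchange factor for the G protein, at 149 ± 31.4 and 131 ± 20.7 CPM, and Adcy3 at 125 ± 33.1 and 112 ± 5.31 CPM. Relative to Olfr counts 5 of the 10 were above 0 and 5 under it, with a median of 0.05 beside 0.31 over all genes. Of 6 other mature OSN genes, 1 reached an unadjusted p under 0.05 in homozygous against wild type libraries, lower: Slc17a6, a vesicular glutamate transporter (62.4 ± 6.28 and 46.7 ± 6.41 CPM, log2 fold change -0.42, unadjusted p = 0.0206, adjusted p = 0.996 in edgeR's test). The 6 were 2 above and 4 under 0, with a median of -0.08. Lhx2, a transcription factor of the OSN lineage, was at 291 ± 49.5 CPM in wild type and 338 ± 51.7 CPM in homozygous libraries (log2 fold change 0.21), and Kirrel2, an adhesion protein of OSN axons, at 111 ± 11.3 and 115 ± 10.2 CPM (0.06). Gfy, the Golgi protein goofy, was at 875 ± 217 CPM in wild type and 812 ± 212 CPM in homozygous libraries. With Olfr counts as reference 0 of these 6 genes reached an unadjusted p under 0.05 in homozygous or heterozygous against wild type libraries.

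In the paralogues of the transport genes, 7 were listed beside Rtp1, Rtp2 and Reep1 and 6 tested. On TMM-scaled levels 1 of the 6, Rtp4, reached an unadjusted p under 0.05. In homozygous against wild type libraries 5 of the 6 were above 0 and 1 under it. Their median log2 fold change was 0.19 beside 0.02 over all genes. Relative to Olfr counts 3 of the 6 were higher in homozygous and 1 in heterozygous than wild type libraries at that threshold, on the scale where 9.39% and 2.36% of all genes reached it. Rtp4 was at 7.33 ± 2.04 CPM (SD, n = 3) in wild type, 12.3 ± 2.36 CPM (SD, n = 4) in heterozygous and 14.1 ± 2.13 CPM (SD, n = 4) in homozygous libraries. Its log2 fold changes against wild type were 0.75 (unadjusted p = 0.00997, adjusted p = 1 in edgeR's test) and 0.95 (unadjusted p = 0.00222, adjusted p = 0.996). Rtp4 is known as an interferon-induced relative of the RTPs. Reep3 (119 ± 17.6 and 113 ± 18.2 CPM in wild type and homozygous libraries), Reep5 (107 ± 18.6 and 113 ± 14.4) and Reep6 (41.6 ± 9.80 and 44.2 ± 6.70) differed by less than their spread. Rtp3 had 0 to 3 counts per library. Of the relatives of Stoml3 and Cidea, Stom (405 ± 107 and 360 ± 43.0 CPM), Stoml1 (49.4 ± 8.05 and 57.4 ± 17.0) and Stoml2 (31.7 ± 2.57 and 31.0 ± 3.40) were tested and 0 of 3 reached an unadjusted p under 0.05, while Cideb and Cidec had 0 to 4 and 0 to 1 counts. Of 12 genes listed for receptor export, folding and the stress response tied to receptor choice, which include Ric8b and Gfy named above, 0 reached an unadjusted p under 0.05 in any comparison, 5 above and 7 under 0 in homozygous against wild type libraries. Among them the chaperone Calr was at 1023 ± 303 and 935 ± 141 CPM, Atf5, the stress response factor through which OR protein signals, at 680 ± 88.4 and 740 ± 94.4 CPM, and Hspa5 at 720 ± 174 and 657 ± 239 CPM.

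Other cell types were followed by marker lists, also on TMM-scaled levels. Of 8 immature OSN genes, 0 reached an unadjusted p under 0.05 in any comparison, and the median log2 fold change in homozygous against wild type libraries was 0.05, with Gap43 at 202 ± 30.6 CPM (SD, n = 3) and 203 ± 18.7 CPM (SD, n = 4). Of 8 precursor genes 1 did, Mki67 in heterozygous against wild type (-0.26, unadjusted p = 0.0445 in edgeR's test). On the Olfr scale 1 of 8 immature OSN genes and 1 of 8 precursor genes were higher in homozygous than wild type libraries at that threshold, beside 9.39% of all genes, and 0 in heterozygous against wild type libraries. Of 8 sustentacular genes 0 did, and the summed level was 3240 to 4652 CPM in wild type, 3048 to 3981 CPM in heterozygous and 2717 to 4564 CPM in homozygous libraries. Trpc2, listed as a vomeronasal neuron gene, had 0 counts in all 11 libraries, for a reason that was not tested. Of the 2 other vomeronasal genes 0 reached that threshold. Of 8 olfactory bulb genes 5 were tested and 1 was higher in homozygous than wild type libraries at an unadjusted p under 0.05 (Slc17a7). Of 8 somatosensory neuron genes 6 were tested and 2 were higher in both mutants at that threshold (Prph and Calca). In homozygous against wild type libraries 3 of the 6 were above and 3 under 0, the latter Isl1 (-0.35), P2rx3 (-0.18) and Piezo2 (-0.05), with a median of 0.25. The Olfr scale had 3 of the 6 higher in homozygous and 2 in heterozygous than wild type libraries at that threshold. Scn10a had 1 to 7 and Trpv1 0 to 5 counts. Skeletal muscle genes moved most, with 4 of 10 higher in homozygous and 8 of 10 higher in heterozygous against wild type libraries at an unadjusted p under 0.05, none after adjustment; relative to Olfr counts these were 6 and 9 of 10. The part of muscle RNA in the differences of the 8 genes was not tested beyond the covariate: with it, the homozygous against wild type log2 fold change went from -0.17 to 0.03 for Stoml3, from -0.31 to -0.15 for Omp, from -0.25 to -0.14 for Rtp1, from 0.13 to 0.24 for Reep1, from 0.00 to 0.15 for Cidea and from 0.21 to 0.47 for Cartpt (unadjusted p = 0.0634, adjusted p = 0.784 in edgeR's test).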

How the data were processed

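RNA-seq of the MOE was made from polyA-selected RNA with a directional kit. The authors trimmed the reads (Trimmomatic 0.36), aligned them to mm10 (HISAT2 2.1.0) and deposited raw counts per gene (featureCounts of Subread 1.6.2). The annotation, strand setting and treatment of reads with several positions are not given in the sources used here. The deposited normalised signal equals these counts over a size factor for each library (DESeq2 1.20.0 by the authors) and was used only to check this. The 8 genes were matched by symbol in the raw counts, positions and exon lengths came from GENCODE M21, and promoters from RefSeq. No gene among the 8 shared 51-base stretches with other genes, apart from Stoml3 (0.620% of its stretches).

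Counts were tested with edgeR 4.0.16 (R 4.3.3): TMM, filterByExpr by genotype, a quasi-likelihood fit of all 11 libraries, F-tests and Benjamini-Hochberg adjustment over 16574 genes (threshold 0.05). The fit was repeated with summed Olfr counts as library size. Sums were compared with two-sided exact permutation tests, and correlations tested with 100000 permutations, or exactly within set 1. The scripts were tested on simulated data. The 8 genes and the lists were proposed with earlier results of these data known, though no threshold on a value was used to pick the 8. Named genes are the 8, up to 4 of each list by level, and the 10 most like Omp. Rtp4, Slc17a6, Mki67, Slc17a7, Prph and Calca were named as the list genes under an unadjusted p of 0.05, and other list genes as markers. Same-numbered wild type and homozygous libraries deviated together over all genes (r = 0.326, 0.415 and 0.396), so the number was used as a block; the labels do not say what it marks. Differently numbered wild type and homozygous libraries of the same library set deviated together as well (r = 0.364, 0.243 and 0.467), so the number cannot be told apart from the set. Wild type and heterozygous, and heterozygous and homozygous libraries of the same number did not (r from -0.585 to -0.188). Alternatives were another scaling (RLE), DESeq2 1.42.0, no filter, each library left out, a replicate block, library set and muscle level as covariates, only 2 genotypes, and other references; added after the data were seen were fits without Rn45s, without 2 libraries together and with a block in 2 genotypes, and the paired Olfr sum. Intervals (95%) come from the fit, and floors (3 counts) cover counting error only.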

Additional observations from a re-analysis of the deposited data

Results flagged for a closer look

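Of 36 groups of 4 libraries, 4 held a library that stood apart from the other 3 by Dixon's test, and chance alone gives about 1 in 20. Heterozygous replicate 2 had the lowest Omp value of its group, 396 counts per 1000 Olfr counts, beside 459 to 469 in the others. Homozygous replicate 3 had the lowest Umodl1 value, 101 counts per 1000 Olfr counts, beside 121 to 125. Heterozygous replicate 1 had the highest Cartpt value, 40.8 counts per 1000 Olfr counts, beside 28.0 to 29.2. Heterozygous replicate 4 had the lowest Taar sum of its group, 3.32 CPM, and it also had the highest skeletal muscle sum of all libraries, 1671 CPM. Groups of 3 were not tested in this way, so wild type replicate 3 could not appear here.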

How the results depend on the processing

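Of the log2 fold changes of the 8 genes under the alternatives, 814 kept their direction and 95 changed it, with no cause tested. In homozygous against wild type libraries, 39 genes passed adjustment with a replicate block in 2 genotypes and 8 in DESeq2, beside 0 in edgeR's fit. Of the 8 genes, those under an unadjusted p of 0.05 numbered 0 with the replicate block, 0 with the muscle covariate, 4 without 2 libraries (wild type 3 and homozygous 2), and 0 to 4 when single libraries were left out, beside 1. Relative to Olfr counts the genes passing adjustment numbered 552 with a replicate block in 2 genotypes, 0 with the replicate block in all genotypes, 2 with the library set, 2 with Omp and 0 with transduction counts as reference, 0 without the 2 libraries, and 0 to 1 without single libraries, beside 1; the 8 genes under an unadjusted p of 0.05 numbered 0 with the block, transduction or Omp reference and 0 to 2 without single libraries, beside 2. For heterozygous against wild type, adjustment left 8 genes with the block in 2 genotypes (46 relative to Olfr counts) and 3 in DESeq2, and of the 8 genes 3 were under an unadjusted p of 0.05 without the 2 libraries and 0 to 2 without single libraries; relative to Olfr counts it was 1 with the library set, 1 without the 2 libraries and 0 to 1 without single libraries. Between homozygous and heterozygous libraries DESeq2 called 2 genes.

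Directions changed as follows, in log2 fold change. In homozygous against wild type libraries, with the muscle covariate Stoml3 was 0.033, with RLE Cidea was -0.0054, without the filter Cidea was -0.017, without Rn45s Cidea was -0.0074, without the 2 libraries Cidea was -0.20, in only 2 genotypes Cidea was -0.016 and in DESeq2 Cidea was -0.0049. Relative to Olfr counts, with the library set Omp was 0.033 and Rtp2 0.13, without the 2 libraries Rtp1 was -0.25, Stoml3 -0.14 and Cidea -0.060, with the replicate block in 2 genotypes Rtp2 was 0.12 and with the Omp reference Rtp2 was 0.020. In heterozygous against wild type libraries, with the muscle covariate Stoml3 was 0.052 and with the replicate block in 2 genotypes Stoml3 was 0.0024. Relative to Olfr counts, with the replicate block in 2 genotypes Omp was 0.016 and Stoml3 0.041, with the transduction reference Omp was 0.027, Rtp1 0.038 and Stoml3 0.050, with the library set Omp was 0.034, Rtp1 0.093, Rtp2 0.088 and Stoml3 0.038, with the replicate block Rtp1 was 0.017 and with the Omp reference Stoml3 was 0.0026. In homozygous against heterozygous libraries, without the 2 libraries Reep1 was 0.046 and Stoml3 0.052. Relative to Olfr counts, without the 2 libraries Omp was 0.0042, Rtp1 -0.035 and Rtp2 -0.089, with the transduction reference Rtp1 was -0.036 and Rtp2 -0.027 and with the replicate block Rtp2 was -0.0052. The block changed no other direction among these.

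Some fold changes crossed 0 when single libraries were left out. In homozygous against wild type libraries, the range was Stoml3 -0.36 to 0.056 and Cidea -0.18 to 0.15. On the Olfr scale, the range was Omp -0.35 to 0.15, Rtp1 -0.20 to 0.17, Rtp2 -0.33 to 0.13 and Stoml3 -0.15 to 0.28. In heterozygous against wild type libraries, the range was Omp -0.41 to 0.083, Rtp1 -0.29 to 0.0027, Rtp2 -0.45 to 0.014 and Stoml3 -0.31 to 0.11. On the Olfr scale, the range was Omp -0.34 to 0.16, Rtp1 -0.22 to 0.15, Rtp2 -0.36 to 0.11 and Stoml3 -0.24 to 0.20. In homozygous against heterozygous libraries, the range was Rtp1 -0.22 to 0.0036, Rtp2 -0.21 to 0.015, Reep1 -0.14 to 0.047, Stoml3 -0.17 to 0.053 and Cartpt -0.10 to 0.21. On the Olfr scale, the range was Omp -0.061 to 0.017, Rtp1 -0.057 to 0.11, Rtp2 -0.092 to 0.17, Cidea -0.23 to 0.024 and Umodl1 -0.12 to 0.052. The Taar sum of homozygous against heterozygous libraries differed by -98.1% to -97.1% (exact permutation p = 0.0571, the smallest that 3 against 4 can give). Pearson's r with the Olfr sum changed sign without the 2 farthest libraries (Omp -0.18, Rtp1 -0.11, Stoml3 -0.18, Umodl1 -0.11, Cartpt -0.10), within set 1 (Rtp2 0.96, Cidea 0.72) and on shares of raw counts (Cidea 0.35, Rtp2 0.37, and 0.036 with Rn45s left out). With 1 to 3 Taar counts, no ratio to Taar counts could be given for homozygous libraries.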
